A study of Homo sapiens with 24 samples.

Results

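To describe the chromatin that carried H3K27 acetylation with TGFβ and lacked it after depletion of PHF13, the peak lists of 6 H3K27ac ChIP-seq libraries from PANC-1 cells were merged into 39923 regions. A region was kept if both siControl+TGFβ lists held a peak there and none of the 2 siControl lists and 2 siPHF13+TGFβ lists did. This left 729 regions, 1.83% of all, which are called gained-and-lost regions here. The regions were thus chosen by their H3K27ac peaks, and their H3K27ac values are given as a description with no test. A further 2294 regions had a peak in both siControl+TGFβ lists, in neither siControl list, and in at least 1 siPHF13+TGFβ list, which was replicate 2 for all 2294 and replicate 1 for 32. These gained-and-retained regions are the closest set for comparison, and together the 2 sets make up the 3023 regions gained with TGFβ.

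PANC-1 is a cell line from a human pancreatic ductal carcinoma. The siControl cells received a control siRNA and no TGFβ, the siControl+TGFβ cells the same siRNA and then TGFβ (10 ng/ml, 48 h), and the siPHF13+TGFβ cells an siRNA to PHF13 before TGFβ. Depletion of PHF13 without TGFβ was not among the groups, and peak lists do not measure the knockdown. Each group had 2 libraries for each of H3K4me3, H3K27ac and H3K27me3, 18 in all, and nothing states whether the 2 libraries came from separate cultures, so p-values measure the spread between libraries, which may be technical.

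H3K27 acetylation is deposited by the p300 and CBP acetyltransferases and marks active promoters and enhancers. H3K4 trimethylation marks promoters above all, and is read by the PHD finger of PHF13, while H3K27 trimethylation is the mark of Polycomb repression. TGFβ binds a receptor kinase that activates SMAD2 and SMAD3, which enter the nucleus with SMAD4 and bind enhancers together with factors such as AP-1, and in epithelial cells this drives epithelial-to-mesenchymal transition (EMT), with loss of cell junctions and gain of matrix, integrin and actin gene expression.

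Some facts about the lists bear on every result below. The H3K27ac list labelled siPHF13+TGFβ replicate 1 held 6004 peaks, against 19413 to 36104 in the other 5 lists, and leaving it out left the same 729 regions, so that absence with siPHF13 rested on replicate 2 alone. The study lists a larger number of peaks for this library, as it does for the H3K4me3 and H3K27me3 libraries of the same group and replicate and for H3K27me3 of siControl replicate 1, so these deposited lists may be incomplete. Without siPHF13+TGFβ replicate 2 the rule gave 3147 regions. In addition, peaks in the lists labelled siPHF13+TGFβ were named with the study's short form for siControl+TGFβ, and those labelled siControl+TGFβ with a different short form. The list lengths that the study tabulates by condition go with the labels for both groups, replicate 1 of siPHF13+TGFβ aside. Groups were taken from the labels, and every direction here holds only if the labels are right. With the labels of these H3K27ac lists exchanged, 3 regions met the rule. The exchanged rule needs a peak in the list of 6004 peaks, which keeps the count low, so it cannot show which labels are right. As a check of the cell type, an H3K4me3 peak lay within 1 kb of a transcription start site (TSS) in all 6 lists for 8 of 11 markers of the ductal line (KRT8, KRT18, KRT19, EPCAM and SOX9 among them), for 0 of 4 acinar, 0 of 3 endocrine and 0 of 4 blood markers. The endothelial marker CDH5 had none in any list, and PECAM1 had no TSS in the annotation used.

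The sequences at the summits of 8 gained-and-lost regions are shown, since the rule used position and not sequence. They were read from GRCh37 (hg19) on the plus strand as 200 bases centred on the summit of the stronger siControl+TGFβ peak, each under the gene with the nearest TSS of a protein-coding transcript (coding TSS). For the first 4, chosen for an AP-1 match near a gene of the lists used below or for 2 matches, capitals mark TGANTCA. This is a looser form of TGA(C/G)TCA, the site of FOS and JUN dimers, and reads the same form on both strands. It also takes in TGATTCA and TGAATCA, as in the LOXL4 and ADAM19 regions, and every AP-1 share below counts these.
LOXL4 region, chr10:100083322-100083521: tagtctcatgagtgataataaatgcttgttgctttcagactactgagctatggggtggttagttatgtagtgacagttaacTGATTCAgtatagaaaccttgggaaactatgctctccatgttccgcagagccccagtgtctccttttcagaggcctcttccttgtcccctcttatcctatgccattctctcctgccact
DIAPH1 region, chr5:140888886-140889085: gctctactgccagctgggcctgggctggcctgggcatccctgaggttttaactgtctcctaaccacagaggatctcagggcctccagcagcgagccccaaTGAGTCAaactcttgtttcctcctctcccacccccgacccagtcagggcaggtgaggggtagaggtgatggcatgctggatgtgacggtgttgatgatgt
ADAM19 region, chr5:156967879-156968078: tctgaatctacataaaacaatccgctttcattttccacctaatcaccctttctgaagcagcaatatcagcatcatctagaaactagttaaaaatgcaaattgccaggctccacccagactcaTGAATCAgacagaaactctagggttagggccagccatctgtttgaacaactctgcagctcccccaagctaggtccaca
DUSP6 region, chr12:89785188-89785387: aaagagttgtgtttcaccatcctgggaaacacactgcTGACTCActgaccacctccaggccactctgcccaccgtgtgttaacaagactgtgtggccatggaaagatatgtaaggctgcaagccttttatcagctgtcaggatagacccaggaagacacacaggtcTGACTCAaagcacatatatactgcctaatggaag

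In the next pair, capitals mark GTCTAGAC, the palindrome that SMAD3 and SMAD4 bind. 3 gained-and-lost regions held it in 300 bases at the summit (0.412%, against 0.262% of gained-and-retained and 0.155% of all regions). They lay near RAB27B, NFKBIA and DDI2, and the palindrome lay in the 200 bases for the first 2 of these.
RAB27B region, chr18:52340442-52340641: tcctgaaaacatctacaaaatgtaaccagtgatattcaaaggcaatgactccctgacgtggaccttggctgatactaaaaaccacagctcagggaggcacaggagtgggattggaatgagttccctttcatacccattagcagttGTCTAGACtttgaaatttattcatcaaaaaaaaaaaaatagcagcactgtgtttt
NFKBIA region, chr14:35854646-35854845: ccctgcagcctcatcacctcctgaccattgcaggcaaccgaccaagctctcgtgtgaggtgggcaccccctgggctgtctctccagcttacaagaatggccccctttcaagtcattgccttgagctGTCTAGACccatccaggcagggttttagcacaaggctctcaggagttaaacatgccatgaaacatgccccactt

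The last pair lay outside promoters and gained H3K4me3 and H3K27ac peaks in the siControl+TGFβ lists only (described below); neither held an AP-1 match, so no letters are in capitals.
CPEB2 region, chr4:14918506-14918705: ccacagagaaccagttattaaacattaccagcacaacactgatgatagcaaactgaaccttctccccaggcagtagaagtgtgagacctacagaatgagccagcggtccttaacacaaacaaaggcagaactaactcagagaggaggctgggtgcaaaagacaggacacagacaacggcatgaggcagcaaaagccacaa
ABHD6 region, chr3:58246460-58246659: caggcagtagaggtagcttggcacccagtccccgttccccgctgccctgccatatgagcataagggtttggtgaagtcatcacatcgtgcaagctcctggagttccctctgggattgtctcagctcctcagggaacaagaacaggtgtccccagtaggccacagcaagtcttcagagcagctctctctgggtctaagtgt

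The gained-and-lost regions were weak and narrow among the H3K27ac peaks of their own lists. Peaks were ranked within a list by the −log10 of the q-value that the authors' peak caller gave them, with percentile 100 the strongest. The median percentile was 30.2 in siControl+TGFβ replicate 1 and 15.8 in replicate 2, against 44.1 and 24.2 for gained-and-retained regions and 91.0 and 87.9 for the 4966 regions that all 6 lists shared. Their median −log10 q was 6.57 in replicate 1 and 3.29 in replicate 2, and the median fold enrichment over input was 4.10 and 3.93. 657 regions (90.1%) were below percentile 50 in both lists and 8 were above it in both. Ranks in the 2 replicates were weakly related across regions (Spearman rho = 0.27 over 729 regions, which share 2 libraries).

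**Figure D1:**
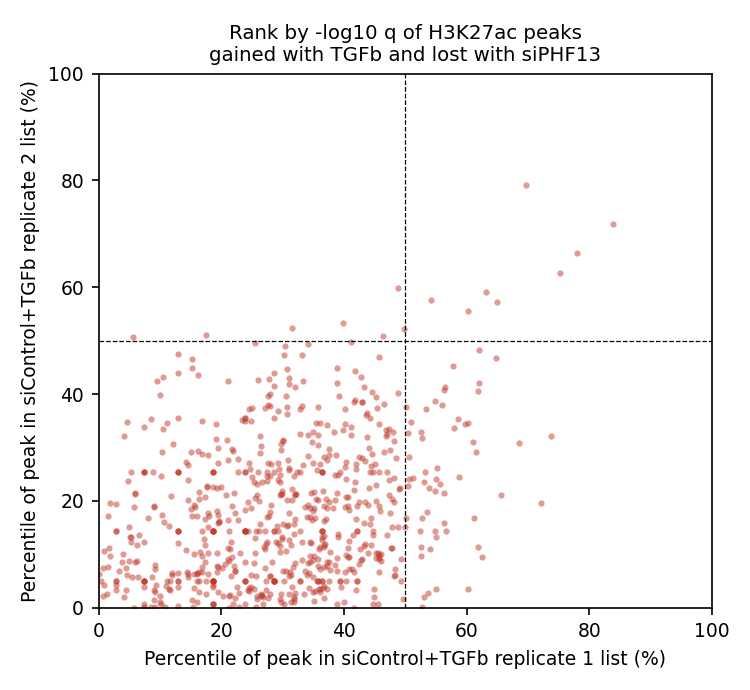
Each point is 1 of 729 gained-and-lost regions, placed by the percentile (%) of its strongest H3K27ac peak in the siControl+TGFβ replicate 1 list (x axis) and replicate 2 list (y axis); dashed lines mark percentile 50. The lower left part holds 657 regions and the upper right 8.

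Their merged width ran from 162 to 1929 bp with a median of 505 bp, while the median was 882 bp for gained-and-retained regions and 1761 bp for regions in all 6 lists. Merged width joins the peaks of every list that has one, and by the rule the sets differ in the number of such lists. In the siControl+TGFβ lists alone, the median of the mean bp covered was 354, 535 and 1528 bp for the same sets. At gained-and-lost regions peaks covered a median of 455 bp in replicate 1 and 236 bp in replicate 2. 609 of 729 regions were wider in replicate 1, the library with the longer list. The 10 strongest were of 2 kinds. Of these, 5 were under 250 bp wide, a width that 41 of all 729 had. They lay nearest LILRB3 (an inhibitory leukocyte receptor), NTS (neurotensin), SPIDR (a DNA repair scaffold), VPS54 (a vesicle tethering factor) and IFITM2 (an antiviral membrane protein). The NTS region, chr12:86303518-86303702, was 185 bp wide and lay 35445 bp from the TSS, with 801799 bp to the nearest H3K27ac peak of any of the other 4 lists. The SPIDR region, 1308608 bp from the TSS, was the only one of the 10 with H3K27me3 peaks, which were in 5 of 6 lists. No filter for sequence known to give false peaks was applied here. The other 5 were 544 to 1929 bp wide and lay nearest SOX9, SYNJ2, CSF2, CPEB2 and PCSK6. The SYNJ2 region (a lipid phosphatase of endocytosis), chr6:158432042-158433970, was the widest of all at 1929 bp, and was followed by regions near SKAP1 (1876 bp) and ME3 (1817 bp).

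At the edge of the rule, 2360 regions were kept out by a peak in just 1 list. For 2262 of them that list was siPHF13+TGFβ replicate 2, where the median −log10 q of the peak that kept them out was 7.47. siControl replicate 2 kept out 88 (median −log10 q 3.58), siControl replicate 1 kept out 10 (median 3.10) and siPHF13+TGFβ replicate 1 kept out 0. In 25 of the 2360 the peak that kept them out had a −log10 q under 2, and 53 of the 729 regions had a peak as weak as that in at least 1 siControl+TGFβ list. When only peaks with a −log10 q of at least 3 were used, 541 regions met the rule and overlapped 429 of the 729. With the 50% strongest peaks of each list, 443 regions met it and overlapped 8.

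To see what lay beside them, the distance to the nearest H3K27ac peak of each other list was measured. In siPHF13+TGFβ replicate 2, 222 regions (30.5%) had a peak within 1 kb, although none overlapped. In siControl replicate 1 this held for 68 (9.33%), in siControl replicate 2 for 117 (16.0%) and in the short list of siPHF13+TGFβ replicate 1 for 13 (1.78%). The order of these shares followed the order of the list lengths, 32403, 25929, 19413 and 6004 peaks. The part that list length has in it was not tested. The ITGB5 region at chr3:124556152-124556617 was 5 bp from a peak in siPHF13+TGFβ replicate 2, and the IRS1 region at chr2:227290896-227291409 was 9 bp from one. When peaks up to 500 bp apart were joined, 585 regions met the rule and overlapped 508 of the 729 (69.7%). At the other end, 283 regions (38.8%) had no peak of the 4 lists within 10 kb and 85 had none within 50 kb.

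**Figure D2:**
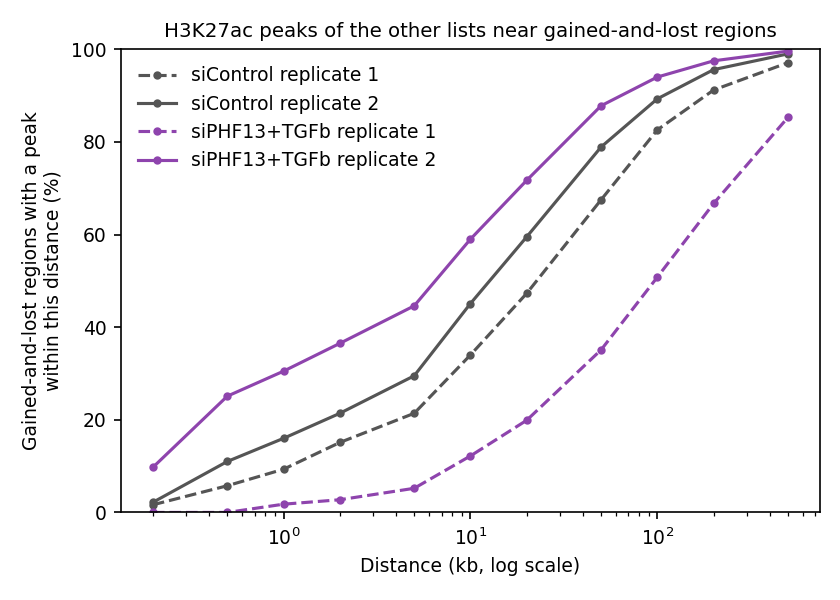
Share of the 729 gained-and-lost regions (y axis, %) with an H3K27ac peak of another list within the distance on the x axis (kb, log scale), 1 line per library. At 1 kb the lines stand at 30.5% (siPHF13+TGFβ replicate 2), 16.0% and 9.33% (siControl replicates 2 and 1) and 1.78% (siPHF13+TGFβ replicate 1).

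Most gained-and-lost regions lay away from promoters. 537 of 729 (73.7%, 95% Wilson interval 70.3 to 76.7, which covers counting error over regions only) had no protein-coding TSS within 5 kb, against 71.5% of gained-and-retained regions and 57.3% of all regions. Within 1 kb of such a TSS lay 100 regions (13.7%), against 20.6% and 35.2%. By the annotation, 287 (39.4%) were in introns of coding genes, 50 (6.86%) touched an exon, 94 (12.9%) were in lncRNA genes and 198 (27.2%) were intergenic. The median distance to the nearest coding TSS was 19941 bp for these regions, 18498 bp for gained-and-retained regions and 9934 bp for all, and 119 regions (16.3%) were more than 100 kb away. When TSSs of all annotated genes were used, 53.2% had none within 5 kb, against 39.7% of all regions.

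**Figure D3:**
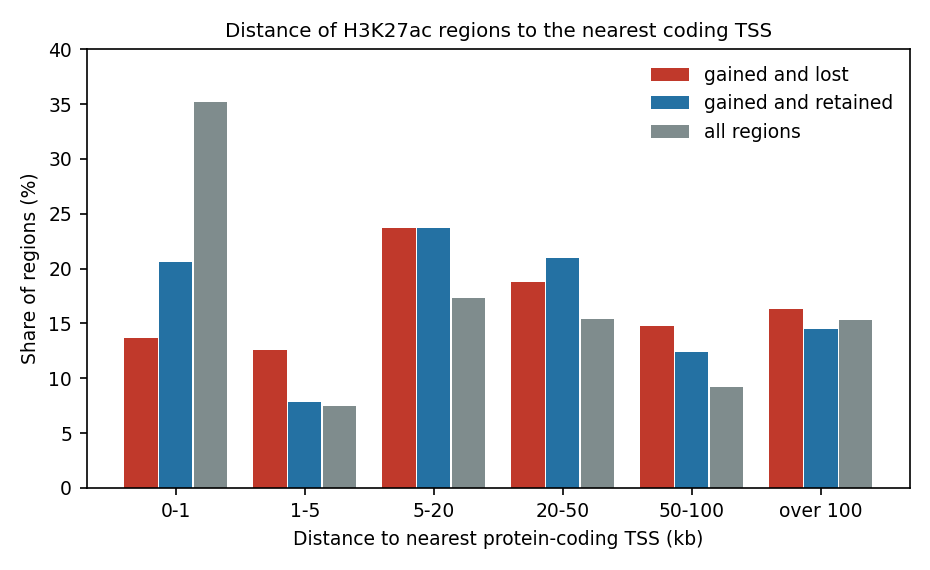
Share of regions (y axis, %) by distance to the nearest protein-coding TSS (x axis, kb) for gained-and-lost regions (n = 729), gained-and-retained regions (n = 2294) and all merged H3K27ac regions (n = 39923). In the bin up to 1 kb the bars stand at 13.7%, 20.6% and 35.2%.

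The windows also differed from all regions in base composition. The median GC content of 300 bases at the summit was 46.3%, against 47.3% for gained-and-retained regions and 50.7% for all, and the median number of CpG dinucleotides was 3, 4 and 6. Among distal regions alone the GC content was 45.3% for both gained sets and 44.7% for all. AP-1 matches were present in 97 of 729 windows (13.3%), in 11.5% of gained-and-retained and 9.77% of all. In windows at the middle of the merged region the order turned, with 15.4% of gained-and-lost and 23.3% of gained-and-retained. Among distal regions the shares were 14.0%, 13.0% and 13.0%. The TEAD motif GGAATG, read by the partners of YAP, was in 20.3% of gained-and-lost regions, 16.5% of gained-and-retained and 15.8% of all, and among distal ones in 20.7%, 17.5% and 18.3%. Both AP-1 and TEAD were in 27 windows (3.70%, against 1.79% of all). This pair was not counted for gained-and-retained regions or for distal regions alone. The short SMAD motif CAGAC was in 48.1%, 48.6% and 44.6%, and the E-box CACCTG of SNAI and ZEB factors in 20.3%, 20.5% and 19.9%. Matches on either strand counted, and they are descriptions of these letters, not of binding.

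**Figure D4:**
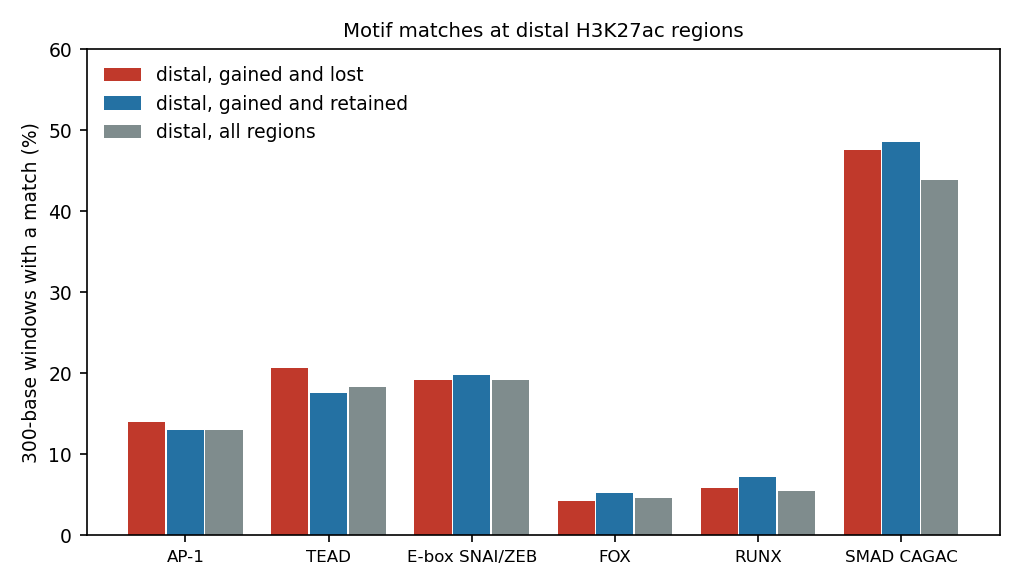
Share of 300-base summit windows with at least 1 match (y axis, %) for 6 motifs (x axis), in distal gained-and-lost (n = 537), distal gained-and-retained (n = 1641) and all distal regions (n = 22869). For AP-1 the bars stand at 14.0%, 13.0% and 13.0%, and for TEAD at 20.7%, 17.5% and 18.3%.

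H3K4me3, which the rule did not use, was then compared at the same regions. A peak of H3K4me3 covered at least 1 bp of 22.5% and 32.2% of gained-and-lost regions in the siControl libraries (replicates 1 and 2). With TGFβ the values were 42.0% and 37.2%, and with TGFβ and siPHF13 they were 17.4% and 26.9%. Both siControl+TGFβ libraries were above all 4 others. The mean was 27.4% ± 6.89 (SD, n = 2) with siControl, 39.6% ± 3.39 with siControl+TGFβ and 22.2% ± 6.69 with siPHF13+TGFβ. With TGFβ the share was thus 12.2 percentage points higher, beyond the pooled SD of 5.43, and with siPHF13 it was 17.4 points lower than with siControl+TGFβ (a change of -17.4, pooled SD 5.31). An exact two-sided permutation test over libraries gave p = 0.333 for each, the smallest that 2 against 2 libraries allow, so no difference could pass a threshold. The numbers of H3K4me3 peaks moved the same way, with 30770 and 35417 in the siControl lists, 39202 and 36308 with TGFβ, and 27869 and 33491 with TGFβ after siPHF13. With the lists cut to the length of the shortest, the differences were 4.32 and -6.65 points. Without siPHF13+TGFβ replicate 1, whose H3K4me3 list may be incomplete, the change with siPHF13 was -12.7 points, and without replicate 2 of that group it was -22.2.

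The gained-and-retained regions, which had an H3K27ac peak in siPHF13+TGFβ replicate 2, had the same order at higher levels. Their H3K4me3 shares were 35.5% and 49.2%, then 60.2% and 54.2%, then 31.6% and 48.6% over the 3 groups, and over all regions the group means were 54.5%, 61.1% and 52.3%. With TGFβ their share was 14.9 points higher and that of all regions 6.61 points higher; with siPHF13 the changes were -17.2 and -8.74 points. The difference between gained-and-lost and gained-and-retained regions in each library changed by -2.66 points with TGFβ (exact permutation p = 0.333) and by -0.246 points with siPHF13 (exact permutation p = 1.00, pooled SD 3.82). These 2 comparisons share the siControl+TGFβ libraries. Among the 537 distal gained-and-lost regions the shares were 14.0% and 24.8%, 34.5% and 29.2%, and 10.2% and 17.9%.

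**Figure D5:**
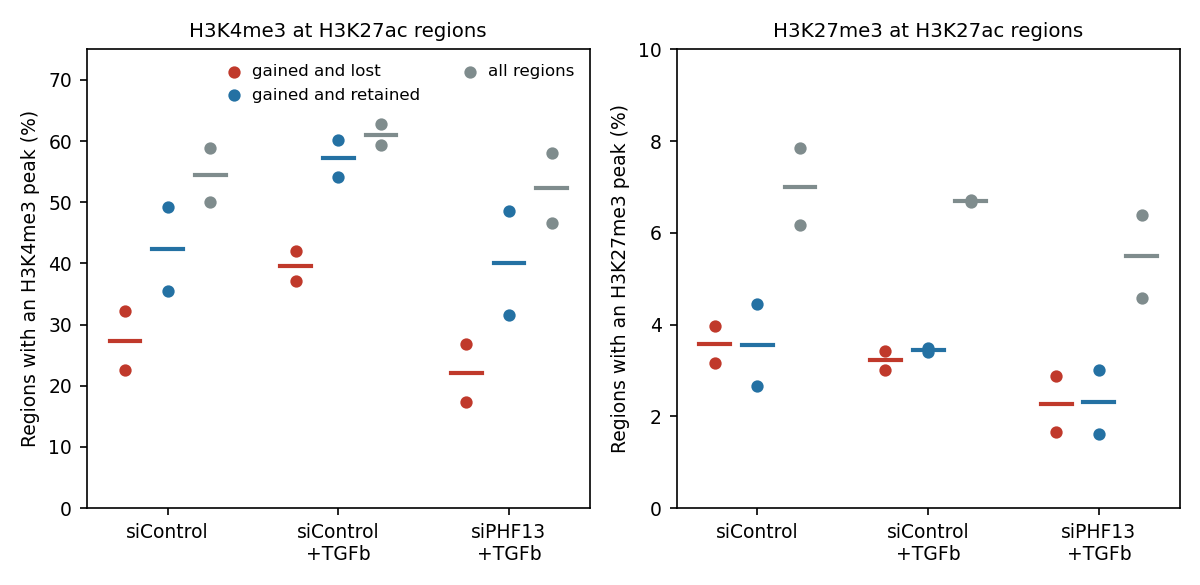
Share of regions (y axis, %) with a peak of H3K4me3 (left) or H3K27me3 (right) in each library, by group (x axis); points are libraries (n = 2), bars their mean, and colours the 3 sets of regions. For H3K4me3 at gained-and-lost regions the siControl+TGFβ points stand at 42.0% and 37.2%, and the other 4 between 17.4% and 32.2%.

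By pattern, 372 gained-and-lost regions (51.0%) had no H3K4me3 peak in any list, against 31.9% of gained-and-retained and 31.4% of all regions, and 115 (15.8%) had one in all 6, against 27.8% and 43.9%. These shares count 1 bp of overlap, which a wider region meets more easily. Median merged widths of the 3 sets were 505, 882 and 713 bp, and 13.7%, 20.6% and 35.2% lay within 1 kb of a coding TSS. The part of width or location in the levels of H3K4me3 was not tested. An H3K4me3 peak in both siControl+TGFβ lists and neither siControl list was found at 36 regions (4.94%, against 2.43% of all regions and 6.06% of gained-and-retained), and the opposite pattern at 0 (background 0.150%). A peak in both siControl+TGFβ lists and neither siPHF13+TGFβ list was found at 61 (8.37%, background 3.40%, gained-and-retained 7.63%), and the opposite pattern at 0 (background 0.125%). 32 regions had H3K4me3 in the siControl+TGFβ lists only (4.39%, background 1.47%, gained-and-retained 3.88%). Of these, 24 had no coding TSS within 5 kb and 3 were within 1 kb of one, at CSF2, THBS3 and RAC2. No test was made of these shares.

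Among the 32, the regions of CSF2 (the cytokine GM-CSF), CPEB2 and PCSK6 had the highest mean percentiles over the siControl+TGFβ lists, 55.9, 55.8 and 55.1. The CSF2 region, chr5:131409563-131410595, lay 81 bp downstream of the TSS with H3K27ac −log10 q of 15.6 and 8.42 in siControl+TGFβ replicates 1 and 2 and fold enrichment of 5.02 and 5.49. H3K4me3 covered 549 and 677 bp of it in these libraries and 0 bp in the other 4. An H3K27ac peak of siControl replicate 2 lay 156 bp away, and one of siPHF13+TGFβ replicate 2 lay 235 bp away. A further gained-and-lost region lay 20090 bp downstream of the same TSS, with no H3K4me3. The CPEB2 region (a cytoplasmic polyadenylation factor), chr4:14918143-14919369, was 84736 bp upstream of the TSS in an lncRNA gene and had a fold enrichment of 8.79 and 6.02. It had 708 and 397 bp of H3K4me3 in siControl+TGFβ only and the nearest H3K27ac peak of the other 4 lists 84731 bp off. At PCSK6, a proprotein convertase gene that can process TGFβ family precursors, the region was intronic, 544 bp wide, and carried 225 and 453 bp of H3K4me3 in siControl+TGFβ. The ABHD6 region (a lipase) carried 358 and 213 bp in siControl+TGFβ only.

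H3K27me3 was rare at gained-and-lost regions. Its broad peaks touched 3.16% and 3.98% of them in the siControl libraries, 3.02% and 3.43% with TGFβ, and 1.65% and 2.88% with TGFβ after siPHF13. The groups overlapped for TGFβ (a change of -0.343 points, pooled SD 0.460, exact permutation p = 0.667) and did not for siPHF13 (-0.960 points, pooled SD 0.651, exact permutation p = 0.333, the smallest possible). The list of siPHF13+TGFβ replicate 1 was again the shortest, with 59573 peaks against 98211 to 165717 in the others, and without it the change was -0.343 points. At gained-and-retained regions the shares were about as low, at 2.66% and 4.45%, 3.40% and 3.49%, and 1.61% and 3.01% over the 3 groups. The change with siPHF13 was -1.13 points there and -1.21 points over all merged regions. In all, 693 gained-and-lost regions (95.1%) had no H3K27me3 in any list, and over all merged regions the share per library was 4.58% to 7.84%. 11 regions had it in all 6 lists, and at 3 of these, within 1 kb of the TSSs of MGLL (monoglyceride lipase), NPTX1 (a neuronal pentraxin) and DLL3 (a Notch ligand), H3K4me3 was in all 6 lists too.

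Changes of H3K27me3 were few. It was gained with TGFβ at 1 region (background 0.123%), nearest FAM27E3, and lost with TGFβ at 3 (background 0.248%). These 3 were nearest TXNIP (a thioredoxin inhibitor), BDNF (a neurotrophin) and EPHA3 (an ephrin receptor, 1317827 bp away). The TXNIP region, chr1:145437833-145438866, covered the TSS, had H3K4me3 over 975 to 1034 bp in all 6 lists, and had 61 and 152 bp of H3K27me3 in siControl and 0 in the other 4 libraries. At BDNF, H3K27me3 covered all 375 bp in both siControl libraries and in siPHF13+TGFβ replicate 2, and 0 bp in the other 3. It was lost with siPHF13 at 3 regions (background 0.381%), nearest KIRREL1, FAM27E3 and IGSF9B, and gained with siPHF13 at 0 (background 0.0326%). The KIRREL1, FAM27E3 and IGSF9B regions were chosen after their values were seen.

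By coding TSSs the 729 regions lay nearest 634 different coding genes, 557 of which had a single one. A non-coding transcript of a coding gene began nearer to 148 regions, and for 26 of these it was of another gene. 15 genes had 3 or more. IRS1 (the insulin receptor substrate), IRF2BP2 (a transcriptional corepressor) and ASAP1 (an ARF GTPase-activating protein of podosomes and invasion) had 4 each. The 4 at IRS1 were intergenic, 146789 to 373127 bp downstream of the TSS, and the region at chr2:227342518-227343299 carried 397 and 246 bp of H3K4me3 in siControl+TGFβ only. The 4 at IRF2BP2 were 73544 to 241356 bp upstream. SOX9, ITGB5, SPRY1, SGK1 and MSN were among those with 3. Over the genome, 115 regions fell into 55 groups of 2 or more with gaps of at most 50 kb, the largest of 4. None lay nearest PHF13, which was the nearest coding gene of 1 merged region.

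Of the TGFβ and BMP pathway (51 genes), 5 of the 47 genes with any H3K27ac region had a gained-and-lost region: TGFB2 (a ligand), LTBP1 (which holds latent TGFβ in the matrix), SMAD2 and SMAD3 (the receptor-activated transducers) and SMAD6 (an inhibitor). They were nearest to 0.823% of gained-and-lost regions, 1.66% of gained-and-retained and 0.879% of all. At SMAD3 the region was intronic, chr15:67383987-67384560, with −log10 q of 11.7 and 4.50 in the siControl+TGFβ libraries, 155 bp of H3K4me3 in replicate 1 of that group only, and a siPHF13+TGFβ replicate 2 peak of H3K27ac 330 bp away. At TGFB2 the region lay 33827 bp downstream of the TSS in an intron, with −log10 q of 9.43 and 3.07. H3K4me3 covered 191 and 223 bp of it in siControl+TGFβ, 242 bp in siControl replicate 2 and 0 bp in the other 3 libraries. LTBP1 had 2 regions, and that at chr2:33444553-33445965 carried 151 and 461 bp of H3K4me3 in siControl+TGFβ only.

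Among 23 EMT transcription factors, SOX9 and ETS1 had such regions, 4 in all (0.549%, against 0.915% of gained-and-retained and 0.536% of all). SOX9, a factor of ductal and progenitor cells, had 3. The strongest lay far downstream in an lncRNA gene, with −log10 q percentiles of 65.0 and 57.2 and no H3K4me3 in any list. The next lay close by, and H3K27ac peaks of all 4 other lists lay within 2957 bp of the former and 2026 bp of the latter. The last overlapped an exon of the gene, 3044 bp from the TSS, with 241 and 396 bp of H3K4me3 in siControl+TGFβ only. It lay 522 bp from an H3K27ac peak of siPHF13+TGFβ replicate 2 and 525 bp from one of siControl replicate 2. SNAI1, SNAI2, ZEB1, ZEB2 and TWIST1 had no gained-and-lost region.

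Genes of the matrix and of adhesion followed. Of 50 matrix genes, 6 of the 38 with any region had a gained-and-lost region (CCN2, COL6A3, LAMB3, LOXL4, PAPLN and TGFBI; 0.960% of regions, against 0.741% of gained-and-retained and 0.491% of all). The COL6A3 region, chr2:238205657-238207398, was the fourth widest by bp covered, with 1742 bp in replicate 1 and 887 bp in replicate 2. It lay 45907 bp downstream of the TSS of this collagen VI chain, with no H3K4me3 in any list and a siPHF13+TGFβ replicate 2 peak of H3K27ac 4979 bp away. The CCN2 region (connective tissue growth factor) was 179819 bp upstream, with the nearest siControl peak 176363 bp away and the nearest siPHF13+TGFβ peak 36543 bp away. Of the 35 proteases and inhibitors, ADAM19, CTSB, MMP24 and PLAU had 1 region each (4 of 23 genes with any region; 0.549%, 0.392% and 0.245% of the 3 sets).

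Of 22 integrins and cadherins, 4 of 19 had a gained-and-lost region, CD44, ITGA2, ITGB1 and ITGB5 (0.823% of regions, against 0.523% and 0.416%). The ITGA2 region lay 66104 bp upstream of the ITGA2 coding TSS and 7904 bp from the TSS of a non-coding transcript of ITGA1. It touched an exon of a coding gene, which the class does not name. ITGB5, the beta chain of a vitronectin receptor that can activate latent TGFβ, had 3 intronic regions between chr3:124545867 and 124565160. Their −log10 q in siControl+TGFβ replicate 1 was 6.49, 19.2 and 16.7 and in replicate 2 was 3.86, 5.04 and 5.40, and none had H3K4me3 in any list. Of 45 actin genes, 7 of 43 had 1 region each (CNN2, DIAPH1, LIMA1, MYH10, MYH9 and TPM1 among them; 0.960%, 0.654% and 0.646%). The MYH10 region covered the TSS of this non-muscle myosin and had H3K4me3 in all 6 lists, over 415 to 645 of 645 bp. The DIAPH1 region (a formin that nucleates actin) was 1294 bp wide and lay 14644 bp downstream of the nearest DIAPH1 coding TSS. It was in an intron of a coding gene, but the class does not say that this gene was DIAPH1. The TSS of a non-coding transcript of PCDHGC3 was 503 bp away. The region held the AP-1 match printed above and had no H3K4me3. The TPM1 region (tropomyosin) lay 125 bp from a siPHF13+TGFβ replicate 2 peak.

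Of 40 axon guidance genes, 8 of 35 had 1 region each (EFNA5, EPHA2, EPHA4, EPHB2, NRP2, NTN1, ROBO1 and SEMA5A; 1.10%, 0.785% and 0.634%). Of 36 epithelial identity genes, 3 of 23 had one: OCLN and CLDN7, which encode tight junction proteins, and EHF, an epithelial ETS factor (0.412%, 0.218% and 0.271%). At CLDN7 the region lay 133 bp upstream of the TSS, with H3K4me3 in 5 of 6 lists. Of 18 YAP and TEAD genes, AMOTL2 alone had one (0.137%, 0.436% and 0.296%). None of the 23 AP-1 and ATF factors and none of the 22 pancreatic lineage factors had a gained-and-lost region, although 22 and 9 of them had an H3K27ac region of some kind. Over the 11 lists together, 46 gained-and-lost regions (6.31%) lay nearest a listed gene, against 6.67% of gained-and-retained and 4.72% of all regions, and the share was near that of gained-and-retained regions. The nearest gene by position need not be the gene that a distal region acts on.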

How the data were processed

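As the labels and study methods give it, the authors used Trim Galore 0.4.1 on the reads, aligned them to hg19 with Bowtie2 2.4.1, removed duplicates with Picard and called peaks in each library against input with MACS2 2.2.7.1 (narrow for H3K4me3 and H3K27ac, broad for H3K27me3). The deposited lists give for each peak the caller's score, its enrichment as a ratio over input (fold), and p-value and q-value as −log10, but no read counts, so depth is unknown. The lowest deposited −log10 q was 1.30 for H3K27ac, below the threshold stated in the methods, so a limit of 3 was tried. The 6 input samples were not analysed here. H3K27ac peaks of the 6 libraries were merged where they overlapped, and a peak of any mark counted where it covered at least 1 bp. TSSs were those of GENCODE release 44 on GRCh37, regions were named by the nearest TSS of a protein-coding transcript, and the limit of 5 kb is that of the study methods. Shares per library were compared by exact permutation tests. Motif windows were 300 bases, read with pysam 0.24.0, and 13 motifs were searched, of which some are given. Overlaps were tested on simulated intervals against bedtools 2.31.1 (Python 3.11.15, NumPy 2.4.6, SciPy 1.17.1, matplotlib 3.10.9). Named regions were the 10 strongest, the 10 widest by bp covered, up to 5 with H3K4me3 in siControl+TGFβ only or H3K27me3 in siControl only, up to 4 for each gene list, and genes with 3 or more regions. The regions, the 11 gene lists and the motifs were chosen with earlier results of these data known. A few regions and genes are not reported here.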

Additional observations from a re-analysis of the deposited data

How the results depend on the processing

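The number of gained-and-lost regions was 729. It was 443 with the 50% strongest peaks of each list and 157 with lists of equal length (which overlapped 0 of the 729). With the siControl+TGFβ and siPHF13+TGFβ labels exchanged, an alternative added after seeing the data, it was 3. That alternative needs a peak in the short list of siPHF13+TGFβ replicate 1, which keeps its count low. Leaving out 1 library at a time gave 729 to 7189 regions. The lowest was without siPHF13+TGFβ replicate 1, and the count was 7189 without siControl+TGFβ replicate 2, 2044 without siControl+TGFβ replicate 1 and 3147 without siPHF13+TGFβ replicate 2. The distal share was 86.3% at a limit of 1 kb, 81.9% at 2 kb and 53.2% with TSSs of all genes, and the AP-1 share was 7.54% in 200-base windows (5.83% of all regions) and 15.4% in 300-base windows at the middle of the region (14.9% of all and 23.3% of gained-and-retained, against 11.5% of the latter at the summit, so the order of these 2 sets reversed).

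Of 58 alternatives of the compared shares, 53 kept the direction and 5 reversed it. Those with a replicate block, straight or crossed, change only the p-value and keep the main difference, so they could not reverse. The change with TGFβ in the H3K4me3 share of gained-and-lost minus gained-and-retained regions was 0.180 points with lists of equal length. The same difference changed with siPHF13 by 0.0260 points where a peak had to cover 50% of the region, and over leaving out 1 library by -4.01 to 3.52 points, reversing without siPHF13+TGFβ replicate 2 (3.52) and without siControl+TGFβ replicate 2 (0.361). With lists of equal length it changed by -2.95 points, and for gained-and-lost regions that also met the rule at a −log10 q of at least 3 by -2.87 points. The H3K27me3 change with TGFβ was -0.754 to 0.0686 points over leaving out 1 library, reversing without siControl replicate 2. Over the same step the H3K4me3 changes were 7.34 to 17.1 points with TGFβ and -22.2 to -12.7 with siPHF13. The cause was not tested.

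The replicate numbers were not shown to pair the libraries, since replicate deviations correlated between -0.15 and 0.41 over the 3 marks. With the replicate block the H3K4me3 changes were 12.2 and -17.4 points, those of the difference between the 2 sets -2.66 and -0.246, and those of H3K27me3 -0.343 and -0.960, with exact sign-flip p of at least 0.5, the smallest possible. Pairing libraries of different numbers for H3K4me3, added after seeing the data, has the same smallest possible p of the exact sign-flip test. It could therefore make no call. With 2 libraries a group and no read counts, weak peaks near the calling threshold limit what absence from a list can mean.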
